A study of Mus musculus with 16 samples.

Results

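The genes described here are 10 imprinted genes that take part in growth control: Nnat, Ndn, Peg3, Mest, Igf2, H19, Dlk1, Plagl1, Cdkn1c and Grb10. Their rows were found by Ensembl identifier among the 38924 genes of the count table, and all 10 were measured well enough to be tested. The set was proposed because Nnat and Ndn were much lower at 22 °C, so the effect of temperature on the members is given as a description, without a test. In both genotypes Nnat, Ndn, Mest, Dlk1 and Grb10 were lower at 22 °C than at 30 °C, and Peg3 was higher. Peg3 was also the single member that passed the test between genotypes in the model used: at 22 °C it was 3.19-fold higher in the knockout. In that comparison 17.6% of all genes tested passed. Peg3 no longer passed once a measure of clock genes entered the model, where its log2 difference was 1.42 in place of 1.67. That measure set the KO libraries at 22 °C apart from all others, and with it 109 genes passed in place of 2482. Another program, DESeq2, called 3 members at 22 °C (Peg3, H19 and Plagl1), among 3128 of all 14103 genes tested. The H19 value there came mostly from 1 library, and Plagl1 had low counts.

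Imprinted genes are transcribed mainly from the copy inherited from 1 parent, and many of them set the growth of the fetus and the size of its tissues. Paternally expressed members such as Igf2, Mest, Peg3 and Dlk1 are known mostly as genes of growing tissue, while maternally expressed members such as Cdkn1c, Grb10 and H19 are known mostly for restraining growth. Several are also known in fat: Dlk1, also called Pref-1, marks preadipocytes and holds back their differentiation, Ndn (necdin) restrains adipocyte differentiation, and Mest expression tracks the expansion of fat depots. Reads were not assigned to parental alleles, so the values are total RNA of both copies.

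Interscapular brown fat was profiled by bulk RNA sequencing. All mice were C57BL/6J, were kept at their temperature for 4 weeks from the age of 9 weeks, and were 13 weeks old at collection. Wild-type littermates (WT) and mice lacking Akt2 in brown fat (KO) were held at thermoneutral 30 °C or at 22 °C, with 4 libraries in each of the 4 groups and 16 in all. Akt2 encodes a kinase of the insulin signalling pathway, and its deletion relied on UCP1-CreER, a Cre recombinase driven by the promoter of Ucp1 and made active by tamoxifen. Cells that do not use that promoter keep Akt2, and the temperature that changes Ucp1 is also a treatment of the study. The labels list each library as a sample of its own without stating whether animals were shared, and p-values therefore reflect the variation among these 16 libraries, part of which may be technical.

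The labels could be checked on Akt2 itself. Its level, in CPM (the usual depth-normalised unit, here on TMM-scaled library sizes), was 204 ± 12.9 in WT and 69.4 ± 10.7 in KO at 30 °C, and 232 ± 19.8 in WT and 82.2 ± 6.03 in KO at 22 °C (mean ± SD, n = 4). The log2 fold change of KO against WT was -1.55 (SE 0.105) at 30 °C and -1.50 (SE 0.105) at 22 °C, with adjusted p of 2.13e-06 and 5.06e-07 by edgeR's quasi-likelihood test with Benjamini-Hochberg adjustment over all genes tested. Library totals ranged from 12751528 to 23866743 counts. All 10 brown adipocyte markers were present in every group. Skeletal muscle markers made up over 0.1% of counts in 4 libraries, which were WT replicate 2 and KO replicates 1 and 2 at 30 °C and KO replicate 1 at 22 °C. The clock genes Dbp and Arntl, which cycle in opposite phase, also separated 1 group: log2 of Dbp minus log2 of Arntl ran from -3.29 to -2.12 in KO at 22 °C and from -1.33 to 1.74 in the other libraries.

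Promoter sequence was available for 8 of the 10 members in the RefSeq table on GRCm38.p6. The stretches before the annotated start of Nnat, Peg3 and Dlk1 are shown. Nnat had the largest decrease at 22 °C and Peg3 the one increase in both genotypes. Dlk1 had a decrease in both genotypes, as did Ndn, Mest and Grb10, and was the only member with a match to the FOXO motif. Each runs 5′ to 3′ on the strand of its gene and ends at the base before the start. Capitals mark matches to motifs that were searched on both strands.
Nnat: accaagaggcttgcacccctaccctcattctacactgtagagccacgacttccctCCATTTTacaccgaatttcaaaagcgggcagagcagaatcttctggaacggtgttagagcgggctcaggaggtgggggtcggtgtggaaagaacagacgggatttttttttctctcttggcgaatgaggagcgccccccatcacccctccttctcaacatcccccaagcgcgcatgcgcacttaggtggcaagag
Peg3: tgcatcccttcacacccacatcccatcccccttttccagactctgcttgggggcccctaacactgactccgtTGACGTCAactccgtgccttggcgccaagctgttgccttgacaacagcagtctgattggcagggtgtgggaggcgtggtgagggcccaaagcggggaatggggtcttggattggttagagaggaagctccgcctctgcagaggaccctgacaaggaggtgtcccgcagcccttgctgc
Dlk1: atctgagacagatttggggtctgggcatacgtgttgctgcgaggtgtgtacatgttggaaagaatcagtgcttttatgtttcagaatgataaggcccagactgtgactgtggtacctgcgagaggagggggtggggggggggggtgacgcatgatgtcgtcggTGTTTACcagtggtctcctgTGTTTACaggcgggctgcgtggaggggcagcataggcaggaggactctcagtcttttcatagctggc
The Nnat stretch lies at chr2:157559828-157560077 on the plus strand, the Peg3 stretch at chr7:6730420-6730669 on the minus strand and the Dlk1 stretch at chr12:109452573-109452822 on the plus strand. Peg3 held 1 cAMP response element, TGACGTCA, at position -178 from the start, which 1.79% of 32851 promoter windows of 300 bases also held. Dlk1 held 2 matches to the FOXO motif GTAAACA, both on the reverse strand, at positions -87 and -67, and 3.65% of windows held at least 1. Nnat held 1 match to the YY1 motif CCATNTT at position -195, a motif present in 16.08% of windows and also in 1 window each of Igf2 and Grb10. The Ndn window held none of these 3 motifs and lies within an annotated exon of Ndn, so it is not printed. The E-box CACGTG (7.15% of windows) was matched in the Plagl1 window. The response element and the E-box each contain a CG pair; the motifs did not otherwise overlap in these windows. CG pairs numbered 17 in the Nnat window, 13 in Peg3, 11 in Ndn and 9 in Dlk1, against a median of 7 over all windows. Fewer pairs were held by 68.6% of all windows for Nnat and by 54.2% for Dlk1. Windows of the other members ran from 2 pairs in 1 window of Igf2 to 45 in 1 window of Grb10. A match is a description of the letters and shows no binding.

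Levels differed widely among the members. Per kilobase of annotated exon, WT libraries at 30 °C held 115 ± 26.6 CPM of Nnat, 33.6 ± 3.84 of Ndn, 23.4 ± 4.07 of Cdkn1c and 3.6 ± 0.63 of Grb10, each apart from the next by more than their SDs. Peg3 (2.13 ± 0.403), Igf2 (1.75 ± 0.34), H19 (1.74 ± 2.28), Mest (1.46 ± 0.152) and Dlk1 (1.05 ± 0.334) followed, and neighbours in that order did not differ beyond their spread. Plagl1 was lowest, at 0.195 ± 0.0757. In KO at 22 °C the order per kilobase had changed at the top: Cdkn1c stood at 20.9 ± 4.97, Peg3 at 12.4 ± 3.18, Ndn at 11.5 ± 1.30, H19 at 7.48 ± 13.6 and Nnat at 6.74 ± 5.02. Peg3 and Ndn were within each other's spread, and the H19 mean came mostly from 1 library.

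**Figure D1:**
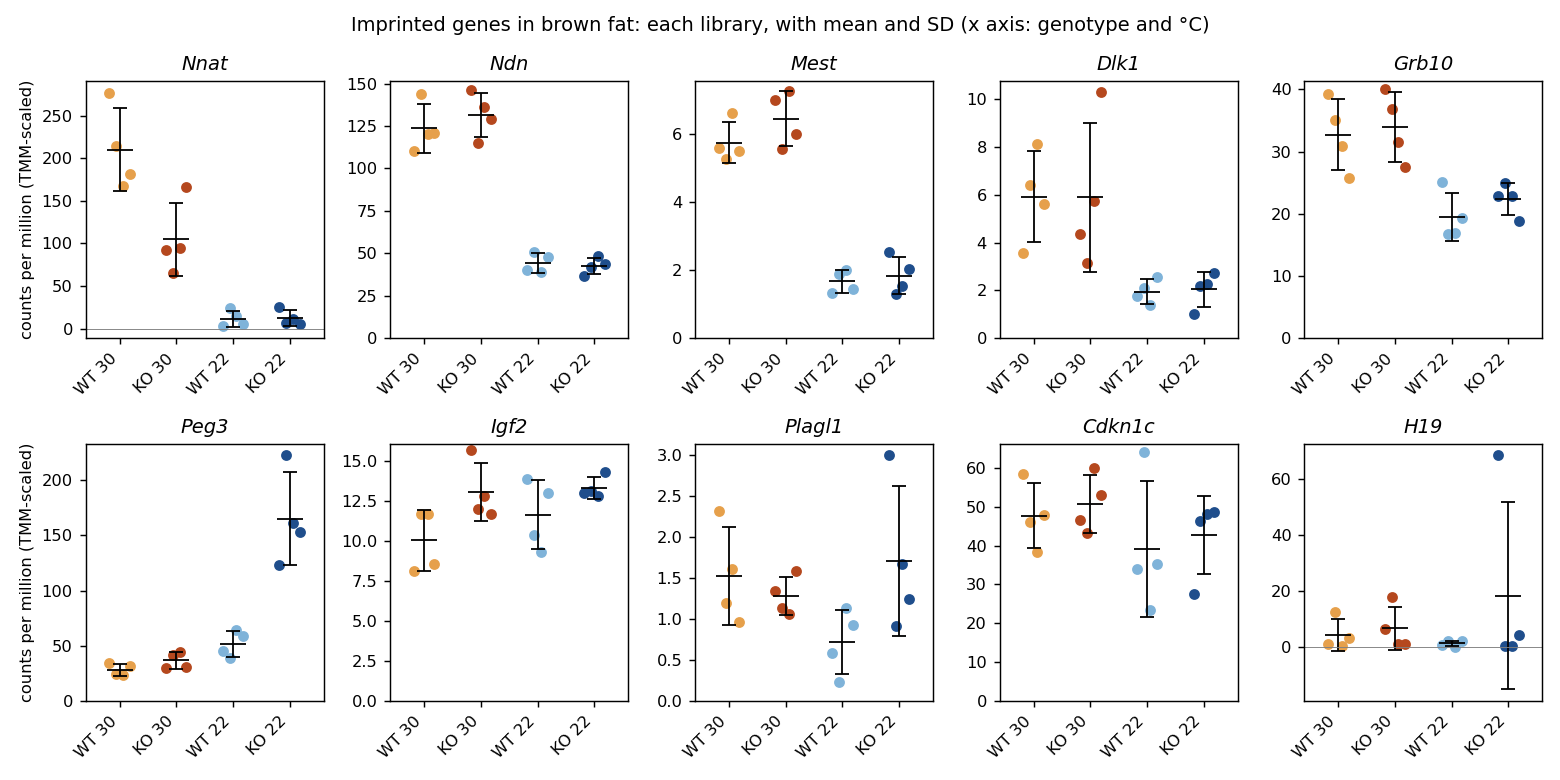
CPM (y axis, linear and scaled separately for each gene) of the 10 imprinted genes in each library, by genotype and temperature (x axis). Points are libraries, the long tick is the group mean and the bar its SD (n = 4). Nnat, Ndn, Mest, Dlk1 and Grb10 are lower at 22 °C in both genotypes, Peg3 is highest in KO at 22 °C (123 to 223), and 1 H19 library stands at 68.5.

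Nnat encodes neuronatin, a small membrane protein of the endoplasmic reticulum that is related to the regulators of the calcium pump SERCA. In WT at 30 °C the 4 libraries held 277, 214, 167 and 182 CPM of Nnat, and at 22 °C they held 3.05, 23.9, 14.5 and 5.81. In KO they held 92.9, 65.2, 95.0 and 166 at 30 °C and 25.5, 6.55, 11.8 and 5.46 at 22 °C. Every library at 22 °C was below every library at 30 °C, as for 16.9% of all genes in WT and 15.0% in KO, and the 22 °C libraries of each genotype spread over a range of more than 4-fold. The log2 fold change of 22 °C against 30 °C was -4.17 (SE 0.590) in WT and -3.09 (SE 0.565) in KO. These 2 values share no library. In bulk tissue, fewer cells that express a gene and less RNA per cell cannot be told apart.

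Between genotypes, Nnat separated at 30 °C without passing the test. The KO mean was 105 ± 42.8 CPM against 210 ± 48.6 in WT, and the highest KO library (166) was just below the lowest WT library (167). The log2 fold change was -1.0 (SE 0.515), with an unadjusted p of 0.0698 and an adjusted p of 0.998 by edgeR's quasi-likelihood test. Libraries that did not overlap and were lower in KO were found for 2.57% of all genes tested, so a separation of this kind is not rare. At 22 °C the means were 12.3 ± 9.19 CPM in KO and 11.8 ± 9.42 in WT, and the libraries overlapped throughout. The KO effect at 22 °C minus that at 30 °C was 1.08 on the log2 scale (SE 0.753, adjusted p = 0.426 by edgeR).

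Ndn encodes necdin, a MAGE family protein known as a growth suppressor of neurons and of adipocyte precursors. WT libraries held 110, 144, 120 and 121 CPM at 30 °C and 40.5, 51.0, 38.8 and 47.9 at 22 °C. KO libraries held 146, 115, 136 and 129 CPM at 30 °C and 36.6, 41.9, 48.2 and 43.6 at 22 °C. The temperatures were far apart and the libraries within a group close together, with log2 fold changes of -1.48 (SE 0.115) in WT and -1.63 (SE 0.116) in KO. Genotype made little difference to the Ndn level: the log2 fold change of KO against WT was 0.09 (SE 0.112) at 30 °C and -0.07 (SE 0.114) at 22 °C.

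Peg3 encodes a large zinc finger protein that binds DNA and is known to repress other imprinted genes. WT libraries held 34.2, 24.2, 23.4 and 31.7 CPM at 30 °C and 45.3, 38.6, 64.3 and 58.5 at 22 °C. KO libraries held 30.2, 41.7, 44.3 and 30.6 CPM at 30 °C and 123, 223, 161 and 153 at 22 °C. Each KO library at 22 °C was higher than all 12 libraries of the other groups, and within each genotype every library at 22 °C was above every library at 30 °C, as for 18.4% of all genes in WT and 17.7% in KO. The log2 fold change of 22 °C against 30 °C was 0.87 (SE 0.205) in WT and 2.17 (SE 0.210) in KO.

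At 22 °C, Peg3 was higher in KO than in WT by 1.67 on the log2 scale (SE 0.206, adjusted p = 9.24e-05 by edgeR's quasi-likelihood test with Benjamini-Hochberg adjustment), in 4 of 4 libraries. It was the single member called in that comparison, in which 17.6% of all genes tested were called and 7.52% were called higher, so 1 of 10 is close to the background share. Libraries that did not overlap and were higher in KO were found for 7.70% of genes. At 30 °C the difference was 0.37 (SE 0.205, adjusted p = 0.998), where 0.0425% of genes and none of the members were called; 1 member, Igf2, had an unadjusted p under 0.05, and neither DESeq2 nor limma called any member there. Averaged over both temperatures the KO effect on Peg3 was 1.02 (SE 0.145, adjusted p = 6.46e-04), in a comparison that called 6.12% of genes and no other member. The KO effect at 22 °C exceeded that at 30 °C by 1.30 (SE 0.288, adjusted p = 0.0270 by edgeR), against 3.14% of genes called for such an interaction.

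The difference at 22 °C kept its direction and call when each library was left out (1.47 to 1.80, adjusted p up to 5.48e-04). With Dbp minus Arntl as a covariate, an alternative chosen after seeing the data, it was 1.42 with an adjusted p of 0.203, and the interaction was 1.09 with an adjusted p of 0.578. Leaving out the 4 libraries rich in muscle markers gave an interaction of 1.47 with an adjusted p of 0.0660, by edgeR in each case. The 4 KO libraries at 22 °C are the 4 lowest of all 16 in that clock measure, so genotype and clock state at 22 °C cannot be told apart well here. The interaction was no longer called without WT replicate 1 (adjusted p = 0.0642) or 4 (0.0700) at 30 °C, without KO replicate 1 (0.0686) or 4 (0.0606) at 30 °C, or without KO replicate 2 (0.0539) or 3 (0.0512) at 22 °C.

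**Figure D2:**
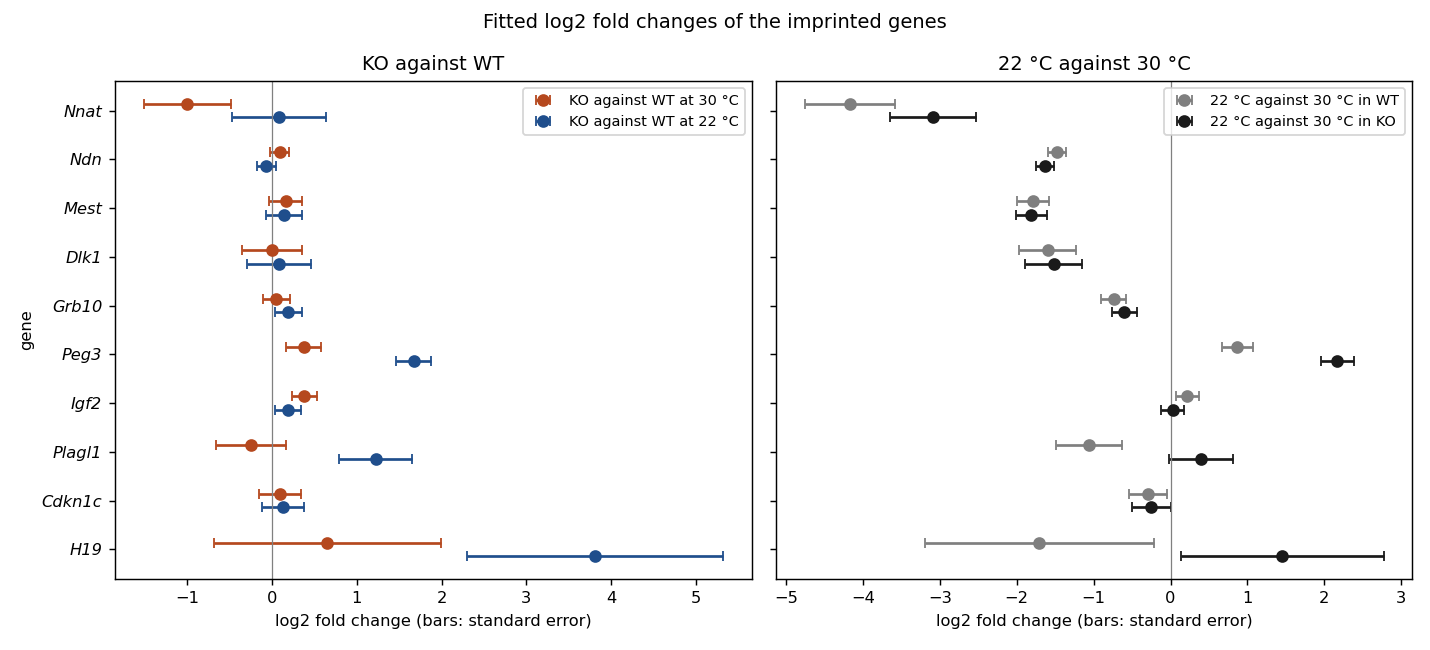
Fitted log2 fold changes (x axis) of the 10 genes (y axis), for KO against WT at each temperature (left) and for 22 °C against 30 °C in each genotype (right); bars are standard errors. On the left Peg3 at 22 °C (1.67) is the one difference that passed the test, and the bars of H19 and Plagl1 are wide. On the right Nnat, Ndn, Mest, Dlk1 and Grb10 lie below 0 in both genotypes and Peg3 above it.

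Mest and Dlk1 were low in this tissue and lower still at 22 °C. Mest encodes a protein with an alpha/beta hydrolase fold, and Dlk1 a membrane protein with EGF repeats that acts as an atypical ligand of Notch receptors. Mest ranged from 5.27 to 6.62 CPM in WT and from 5.56 to 7.25 in KO at 30 °C, and from 1.33 to 2.00 and from 1.29 to 2.52 at 22 °C. The 2 temperatures were apart in both genotypes, with log2 fold changes of -1.79 (SE 0.206) in WT and -1.81 (SE 0.206) in KO. Mest shares 912 exon bases, 23.1% of its annotated exons, with Copg2 on the opposite strand, and without a stated strand setting their reads cannot be told apart there; Copg2 itself differed by 0.13 (SE 0.0854, adjusted p = 0.239 by edgeR) between temperatures in WT.

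Dlk1 held 3.57, 6.42, 8.12 and 5.62 CPM in the WT libraries at 30 °C and 1.77, 2.12, 1.38 and 2.56 at 22 °C. In KO it held 4.38, 3.17, 5.74 and 10.3 CPM at 30 °C and 1.02, 2.20, 2.27 and 2.73 at 22 °C. The temperatures did not overlap, although the lowest library at 30 °C came close to the highest at 22 °C. Log2 fold changes were -1.60 (SE 0.372) in WT and -1.52 (SE 0.372) in KO. Dlk1 rested on 15 to 190 reads per library.

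Grb10 encodes an adaptor that binds the insulin and IGF1 receptors and dampens their signal. It held 25.8 to 39.2 CPM in WT and 27.5 to 40.1 in KO at 30 °C, and 16.7 to 25.1 in WT and 18.8 to 24.9 in KO at 22 °C. The groups at 22 °C lay below those at 30 °C without overlap, by -0.74 (SE 0.158) in WT and -0.60 (SE 0.158) in KO on the log2 scale, which makes Grb10 the smallest of the 5 decreases. Its KO effect was 0.05 (SE 0.156) at 30 °C and 0.19 (SE 0.159) at 22 °C.

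The other 4 members overlapped between temperatures in both genotypes. Igf2, the fetal insulin-like growth factor, ranged from 8.14 to 15.7 CPM over all 16 libraries, and its KO effect averaged over both temperatures was 0.28 (SE 0.107, unadjusted p = 0.0188, adjusted p = 0.131 by edgeR). Cdkn1c, which encodes the cyclin-dependent kinase inhibitor p57, ranged from 23.4 to 64.1 CPM, and its mean was 47.7 ± 8.30 in WT at 30 °C and 42.7 ± 10.1 in KO at 22 °C. Plagl1, a zinc finger transcription factor that restrains the cell cycle, was the lowest: WT libraries at 22 °C held 0.591, 0.228, 1.13 and 0.930 CPM, and KO libraries 3.00, 0.918, 1.67 and 1.25. Its KO effect at 22 °C of 1.22 (SE 0.432) missed the threshold with an adjusted p of 0.0615 by edgeR's quasi-likelihood test and passed it by DESeq2 (0.0371), on 3 to 44 reads per library.

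H19, a maternally expressed long non-coding RNA, behaved unlike the rest because single libraries held most of it. WT libraries held 0.951, 12.5, 0.461 and 3.20 CPM at 30 °C and 0.788, 2.12, 0.188 and 2.21 at 22 °C. KO libraries held 6.43, 17.8, 1.28 and 1.25 CPM at 30 °C and 68.5, 0.306, 0.334 and 4.39 at 22 °C. The highest library of KO at 22 °C exceeded the next by more than 10-fold, and it was also the library with the largest share of skeletal muscle markers (0.552% of counts). The log2 KO effect at 22 °C was 3.81 (SE 1.51, adjusted p = 0.0900 by edgeR, 0.0375 by DESeq2) and fell to 0.37 without that library.

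H19 moved with the skeletal muscle markers across all 16 libraries. After each group's mean log2 value was removed, H19 and the summed muscle share had a Pearson r of 0.96 and a Spearman rho of 0.94 (n = 16, each with p = 1e-05, the smallest that 100000 permutations within groups can give, and an adjusted p of 0.0001 over 10 relations). Without the 2 libraries farthest from the median share, r was 0.95. The other 9 members had r between -0.54 and 0.22, with adjusted permutation p of at least 0.37. Summed muscle markers ranged from 35.9 to 2003 CPM in WT and from 33.5 to 3190 in KO at 30 °C, and from 50.9 to 289 in WT and from 46.8 to 5791 in KO at 22 °C.

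**Figure D3:**
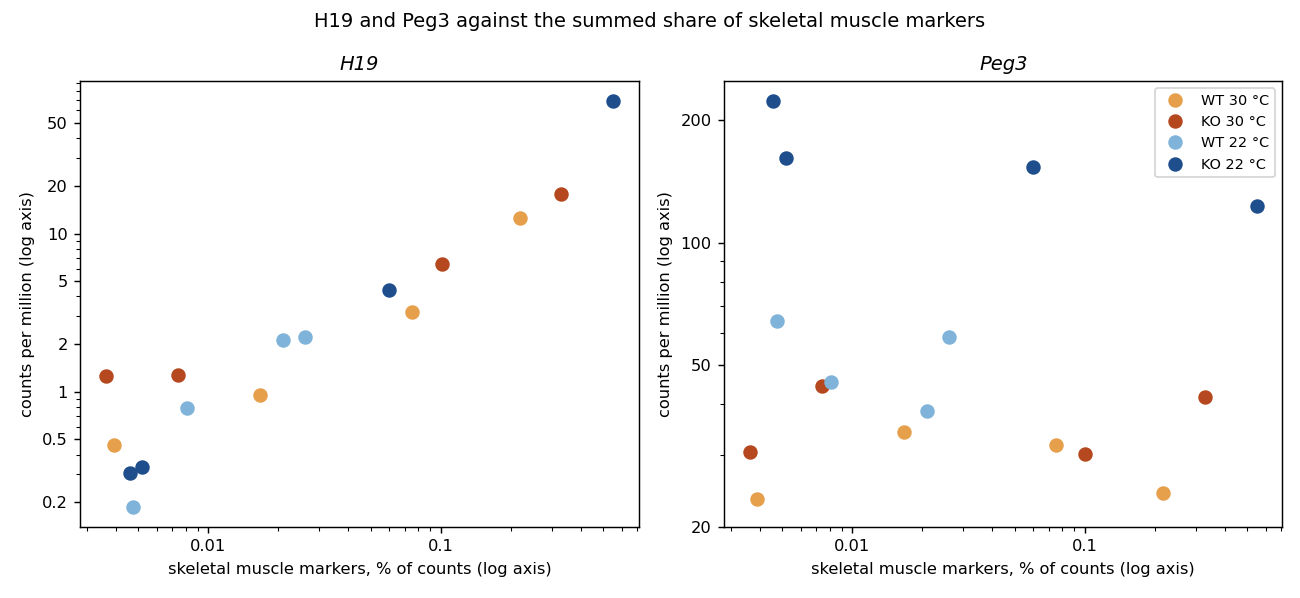
CPM of H19 (left) and Peg3 (right), both on log axes, against the share of counts from the skeletal muscle markers (x axis, log scale) in the 16 libraries, coloured by group. H19 climbs with the muscle share in every group up to 68.5 CPM at 0.552%. Peg3 in the 4 KO libraries at 22 °C is high at low and at high muscle shares.

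In both genotypes the libraries of 5 of the 10 members were lower at 22 °C without overlap, and those of Peg3 were higher. Of all genes, 16.9% in WT and 15.0% in KO were lower in this way, and 18.4% and 17.7% were higher. The set was chosen on this contrast, and nothing is read from these counts. By the same description, of the 7 paternally expressed members 4 were lower and 1 higher in each genotype. Of the 3 maternally expressed members 1 was lower. The 10 genes lie on 6 chromosomes, with 5 of them, Ndn, Peg3, Igf2, H19 and Cdkn1c, on chromosome 7.

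Neighbours in the same imprinted domains are genes the selection did not name, and 19 of 30 were tested. Next to Ndn, Magel2, a MAGE gene of the Prader-Willi region, fell at 22 °C, with log2 fold changes of -3.78 in WT and -3.91 in KO (SE 0.690 and 0.663, adjusted p = 5.55e-04 and 6.90e-04 by edgeR), at low levels of 2.52 ± 1.64 CPM in WT at 30 °C and 0.170 ± 0.123 at 22 °C. Mkrn3 and Peg12 of that domain had values from -1.03 to -0.32 that did not pass, and Atp10a had values of -0.01 and 0.02. Ube3a, which is imprinted in neurons, did not fall: it was 0.11 (SE 0.139) in WT and rose by 0.60 (SE 0.139, adjusted p = 0.00551) in KO.

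Blcap, in whose intron Nnat lies on the opposite strand, fell too, by log2 fold changes of -1.01 in WT and -1.02 in KO (SE 0.153, adjusted p = 1.21e-04 and 2.73e-04 by edgeR's test). The annotated exons of Nnat and Blcap share no bases. In the Dlk1 domain the maternally expressed non-coding RNAs moved the same way as the paternally expressed Dlk1. Meg3 fell in both genotypes, by log2 fold changes of -1.09 (SE 0.0893, adjusted p = 5.38e-07) in WT and -0.65 (SE 0.0885, adjusted p = 1.33e-04) in KO. Rian fell likewise (-0.86 and -0.67), and Mirg in WT (-1.20, adjusted p = 0.0389), while its value in KO was -0.63 (adjusted p = 0.279).

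Meg3 was also higher in KO than in WT at 22 °C, by 0.40 (SE 0.0892, adjusted p = 0.00772 by edgeR), with means of 27.8 ± 1.57 and 21.1 ± 2.34 CPM. By the same test Ube3a was higher in KO (0.48, adjusted p = 0.0282) and Nap1l4 lower (-0.30, adjusted p = 0.0182). Of all genes tested, 17.6% were called in that comparison. Zim1, a low-count neighbour of Peg3, was 1.41 higher in KO at 22 °C (SE 0.488, adjusted p = 0.0572), which missed the threshold, and it reached at most 1.96 CPM. Cobl, beside Grb10, had a value of 2.78 (SE 0.966, adjusted p = 0.0579) in that comparison and -1.97 (SE 0.990, adjusted p = 0.129) between temperatures in WT. In the domain of Cdkn1c, Kcnq1 (-1.17 in WT and -1.69 in KO), Cd81 (-0.77 and -0.71) and Osbpl5 (-0.88 and -0.53) all fell. Nap1l4 rose in WT (0.34, adjusted p = 0.00334) with a value of 0.00 in KO, and Slc22a18 fell in KO (-1.15, adjusted p = 0.0189) with a value of 0.09 in WT. Tssc4 and Tspan32 were called in neither genotype, with values from -0.45 to 0.03, and the value of Cdkn1c itself was -0.29 (SE 0.250) and -0.25 (SE 0.250). Neighbours in the Cdkn1c domain, like those in the Ndn domain, therefore did not share 1 size or direction of difference between temperatures. The values of Meg3, Rian and Mirg were all negative in both genotypes, as were those of Dlk1, and Blcap and Nnat were both lower.

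**Figure D4:**
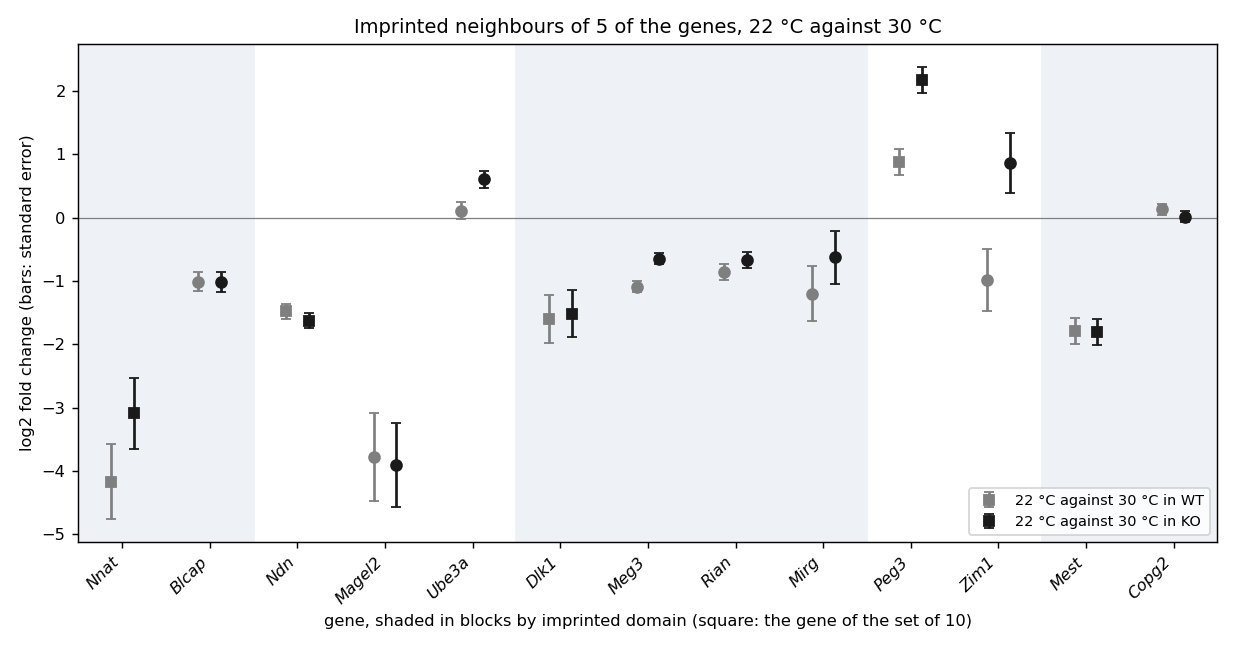
Log2 fold change of 22 °C against 30 °C (y axis, bars are standard errors) in WT (grey) and KO (black) for 5 of the members (squares) and tested neighbours in their imprinted domains (circles), in blocks by domain (x axis). Mkrn3, Peg12 and Atp10a of the Ndn domain were tested but are not shown. Magel2 and Nnat have the lowest values, the Dlk1 block lies below 0, and Copg2 next to Mest lies near 0 (0.13 and 0.01).

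Among other imprinted genes, 39 were tested outside the set. In WT, 6 were higher and 11 lower at 22 °C, and in KO 6 were higher and 12 lower, with medians of -0.08 and -0.06 on the log2 scale against -0.03 and 0.02 over all genes tested. Of all genes, 38.3% were called in WT and 26.7% in KO. In both genotypes 9 of the 39 were lower and 4 higher, where 7.93% and 9.12% of all genes were. Gnas encodes the stimulatory G protein subunit that couples beta-adrenergic receptors to cAMP. It rose by 0.76 (SE 0.112, adjusted p = 2.40e-04 by edgeR) in KO. In WT its value was 0.39, with 262 to 282 CPM at 30 °C and 317 to 421 at 22 °C. No other imprinted gene was called between genotypes at 30 °C. At 22 °C, 5 were higher and 5 lower in KO, among them Impact (0.61), Zrsr1 (-0.62), Slc22a2 (-1.37) and Trappc9 (-0.36), with a median of -0.05 against 0.02 over all genes, of which 17.6% were called. Leaving out the 4 libraries with over 0.1% of muscle markers gave 2 higher and 4 lower, and none was called once the clock covariate was in the model. Over all genes, 1432 were called in the first of these fits and 109 in the second, in place of 2482.

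**Figure D5:**
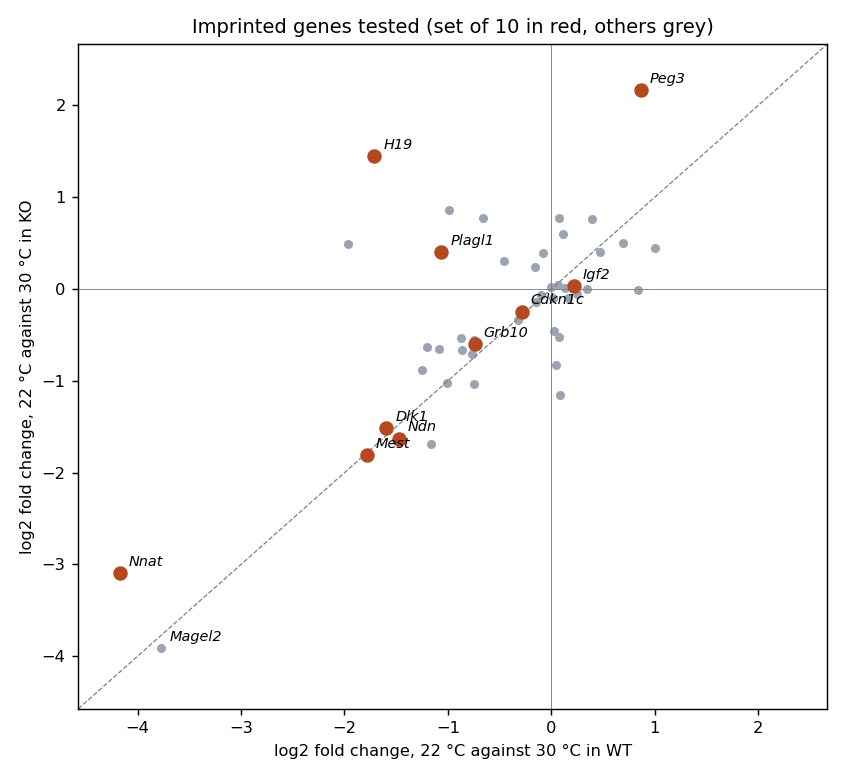
Log2 fold change of 22 °C against 30 °C in WT (x axis) and in KO (y axis) for the 49 imprinted genes tested; the 10 members are red, the other 39 grey, and the dashed line marks equal values. Nnat and Magel2 lie far below 0 on both axes and Peg3 is highest in KO (2.17). The axes share no library.

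Genes of the pathways in which the members act gave a mixed picture. Of 14 tested genes of the insulin-like growth factor axis of Igf2, 2 were higher and 3 lower at 22 °C in WT, and 1 was higher and 3 lower in KO. Over all genes tested, 38.3% were called in WT and 26.7% in KO. The binding protein gene Igfbp3 fell (-1.21 in WT and -1.30 in KO), as did Igf2r, the receptor that clears IGF2 and is itself imprinted (-0.75 and -0.55), while the insulin receptor gene Insr rose by 0.39 and 0.55, all with adjusted p of at most 0.0058 by edgeR. Between genotypes Igf1r alone was called, 0.73 higher in KO at 22 °C (adjusted p = 0.0447), and it was not called when the 4 libraries rich in muscle markers were left out or with the clock covariate. The list medians at 22 °C against 30 °C were -0.12 in WT and 0.22 in KO.

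Grb10 has a close relative in Grb14, another adaptor that inhibits the insulin receptor. Grb14 was lower in KO at 22 °C by -1.37 on the log2 scale (SE 0.169, adjusted p = 9.24e-05 by edgeR), and its interaction was -0.92 (SE 0.235, adjusted p = 0.0468). That interaction was not called with upper-quartile factors, without a filter, by limma, with the clock covariate or in 13 of 16 fits that each omitted 1 library, the exceptions being KO replicate 1 at 30 °C and WT replicates 1 and 4 at 22 °C. The interaction of Grb10 was 0.14 (SE 0.223, adjusted p = 0.743). Of the 8 adaptor genes, Sh2b3 was the other one called between genotypes at 22 °C (0.69 higher, adjusted p = 0.0377), with 67.5 ± 27.7 CPM in KO, where 1 library held 109, and 42.0 ± 9.05 in WT. That call was lost by limma, with only the groups compared, with the replicate block, without the libraries rich in muscle markers, with the clock covariate, and on omitting WT replicate 1, 2 or 3 or KO replicate 1 at 22 °C. Sh2b2 rose at 22 °C by 0.97 in WT and by 0.89 in KO.

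Of 12 tested Notch pathway genes, to which Dlk1 is linked as an atypical ligand, 7 were lower at 22 °C in WT and 4 in KO, and none was higher, with medians of -0.67 and -0.43. Over all genes tested, 17.8% were called lower in WT and 13.0% in KO. Notch3 (-1.16 in WT and -0.61 in KO) and Notch4 (-0.69 and -0.83) fell in both genotypes, and the ligand gene Dll1 in WT (-1.28, SE 0.210). At 22 °C, 5 were higher in KO than in WT, among them Dll1 (0.83), Dll4 (0.92), Notch1 (0.70) and Notch3 (0.57), with adjusted p from 0.0144 to 0.0305 by edgeR. That count was 2 when the 4 libraries rich in muscle markers were left out. It was 0 with the clock covariate, with which 109 of all 14103 genes were called. In the model used, 7.52% of all genes were called higher.

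Of 11 tested SERCA pumps, regulators and calcium store genes, the group related to Nnat, 2 were higher and 4 lower at 22 °C in WT and 1 higher and 2 lower in KO. Over all genes tested, 38.3% were called in WT and 26.7% in KO. Casq2, a calcium-binding protein of the store, fell in both, with log2 fold changes of -2.26 (SE 0.236) in WT and -1.66 (SE 0.228) in KO. Atp2a2, the widely expressed SERCA pump, rose by 0.42 (SE 0.115, adjusted p = 0.0140 by edgeR) in KO. Among 5 tested MAGE genes related to Ndn, Maged2 fell (-0.52 in WT and -0.47 in KO), and Maged1 rose by 0.38 in WT. Of the 6 cyclin-dependent kinase inhibitors tested beside Cdkn1c, Cdkn2d was lower in KO at 22 °C (-0.70, adjusted p = 0.00669) and Cdkn1b fell at 22 °C in WT (-0.35, adjusted p = 0.0266). Plagl2, a relative of Plagl1, fell in WT (-0.49, adjusted p = 0.0310).

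Some lists of markers of other cells also differed between temperatures, and others did not. Summed preadipocyte and fibroblast markers ranged from 1186 to 1688 CPM in WT and from 1236 to 1530 in KO at 30 °C, and from 995 to 1237 and from 1060 to 1285 at 22 °C. Of those 14 markers 5 were lower and 1 higher at 22 °C in WT, and 3 were lower in KO, among them Pdgfrb (-0.71 and -0.54) and Cd34 (-0.85 and -0.91). Summed macrophage markers ranged from 163 to 249 CPM in WT and from 177 to 212 in KO at 30 °C, and from 75.1 to 197 and from 89.9 to 113 at 22 °C, with 6 of 8 genes lower in each genotype. Endothelial markers summed to 1429 to 1452 CPM in WT and 1445 to 1666 in KO at 30 °C, and to 915 to 1089 and 1154 to 1273 at 22 °C, with 5 of 8 genes lower in WT and 3 in KO. Of 8 smooth muscle and pericyte markers 1 was higher and 1 lower in WT and 3 were higher in KO, with medians of 0.16 and 0.47. None of the 10 skeletal muscle markers was called. Over all genes tested, 17.8% were called lower at 22 °C in WT and 13.0% in KO, and 38.3% and 26.7% were called in either direction.

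Nnat, Ndn and Magel2 are also known as genes of neurons, and neuronal markers were low here. Snap25, Th, Dbh and Nefl had a median of 0 CPM over the 16 libraries, whereas Syp held 7.68 to 16.8 CPM and Stmn2 1.45 to 4.17. Syp was higher at 22 °C, by 0.67 in WT and 0.45 in KO (adjusted p = 0.00210 and 0.0323 by edgeR). The 10 neuronal markers summed to 11.6 to 15.4 CPM in WT and 12.1 to 15.6 in KO at 30 °C, and to 13.9 to 24.1 and 14.8 to 17.8 at 22 °C. Schwann cell and nerve markers ranged from 138 to 296 CPM at 30 °C and from 229 to 542 at 22 °C, with 1 of 10 genes higher in each genotype. The part of any of these cell types in the members' differences was not tested.

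At 22 °C, where Peg3 was higher in KO, 3 of 14 preadipocyte and fibroblast markers and 5 of 8 endothelial markers were also called higher in KO by edgeR. No marker of either list was called lower, and 7.52% of all genes were called higher. The list medians were 0.19 and 0.41. The 3 preadipocyte and fibroblast genes were Dcn (0.54, SE 0.0926), Lum (0.68, SE 0.125) and Cd24a (2.07, SE 0.540). Cd24a held 6.77 ± 7.09 CPM in KO, where the highest library held 17.4. Of 8 smooth muscle and pericyte markers 5 were higher, among them Cnn1 (0.96) and Tagln (0.67), and Cspg4 was lower (-0.64, adjusted p = 0.00683); the median of that list was 0.70. Summed levels in KO and WT were 1060 to 1285 and 995 to 1237 CPM for preadipocytes and fibroblasts, and 1154 to 1273 and 915 to 1089 for endothelial cells. Smooth muscle and pericyte markers summed to 884 to 1044 CPM in KO and 703 to 766 in WT, without overlap. With the clock covariate no marker of the 3 lists was called in that comparison. Only 109 of all 14103 genes were then called, in place of 2482, so a count of 0 in lists this short says little. Whether they have a part in the Peg3 difference was not tested.

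The genes whose profile over the 16 libraries lay nearest to Ndn, by the root mean square difference of centred log2 values, were Zfr2 (0.226), Top2a (0.245), Tmem25 (0.248), Pck2 (0.252) and Begain (0.260). Zfr2 held 10.6 CPM in WT at 30 °C and 2.77 at 22 °C, and Top2a, a topoisomerase of dividing cells, held 5.59 and 1.44. Nothing lay as near to Nnat, whose closest were Mmp12 (0.958), Tusc3 (0.995), Apcdd1 (1.02), Spag5 (1.03) and Rab17 (1.06). Mmp12, a macrophage elastase, held 18.3 CPM in WT at 30 °C and 0.966 at 22 °C. None of these 10 genes is on the list of imprinted genes used here.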

How the data were processed

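Brown fat RNA was measured in 16 libraries, grouped by their titles and descriptions. The deposited values are raw read counts per Ensembl gene, made by the authors with FastQC 0.10.1, STAR 2.4.2a and edgeR 3.14.0 on GRCm38 and mm10, per the submitters' processing notes, which give no role for each. Which program counted the reads, with which annotation and strand setting, is not given in the sources used here. Symbols matched 37607 identifiers, and the 1317 without one held at most 0.131% of a library's counts. Coordinates and exon lengths are from GENCODE M21 on GRCm38.

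Of 24818 genes with a count, 14103 passed filterByExpr (minimum count 10); they held no less than 99.9% of any library's counts. Counts entered 1 edgeR 4.0.16 quasi-likelihood model (R 4.3.3) with a term per group and TMM factors, and p-values were adjusted over all 14103 genes with a threshold of 0.05. The biological coefficient of variation was 22.5%. Simulated counts with 100 genes changed 2-fold were used to check the script: 61 were called for KO against WT at 30 °C, 64 at 22 °C and 37 for the interaction. Alternatives were RLE and upper-quartile factors, no filter and a stricter one, DESeq2 1.42.0, limma 3.58.1 with voom, only the groups compared, a replicate block, each library left out, the muscle-bearing libraries left out and, chosen after seeing the data, a clock covariate. Between 2 libraries of a group the smallest chi-square per degree of freedom was 7.68, so none was counted as a duplicate.

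The members, gene lists and tests were chosen with earlier results of these data known. The text names every member and Akt2, up to 4 called genes with the smallest p per other list and comparison, the tested neighbours of the members' domains, and the 5 genes nearest to Nnat and to Ndn. Some genes named from the lists were left out for length. Snrpn, Kcnq1ot1, Peg13 and Zfp264 had no match by symbol and were not analysed here.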

Additional observations from a re-analysis of the deposited data

Results flagged for a closer look

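H19 in KO at 22 °C stood out because 1 of the 4 libraries, replicate 1, held 68.5 CPM while the others held at most 4.39. The same library held the lowest Cdkn1c of its group, 27.6 CPM, against 46.4 to 48.6 in the other 3. Dixon's test was applied to 40 groups of 4 libraries and marked these 2; chance marks about 1 in 20. That library had 0.552% of its counts in skeletal muscle markers, the largest share of the 16; its part in the Cdkn1c value was not tested. Peg3 was marked because its KO effect differed between temperatures, by 1.30 on the log2 scale (SE 0.288, adjusted p = 0.0270 by edgeR's quasi-likelihood test, 0.578 with the clock covariate), with KO above WT in 4 of 4 libraries at 22 °C.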

How the results depend on the processing

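The decreases of Nnat, Ndn, Mest, Dlk1 and Grb10 and the increase of Peg3 at 22 °C kept their direction in both genotypes under all 18 alternatives run for each. The libraries of these genes did not overlap between temperatures, so leaving out 1 library could not reverse a direction. The set was also chosen on this contrast, and nothing is read from the kept directions. Nnat ranged from -4.77 to -3.85 in WT and from -4.04 to -2.81 in KO. Upper-quartile factors moved the median of all genes at 22 °C against 30 °C to -0.13 in WT, from -0.03. Low counts limit Plagl1, Dlk1, Mest and H19. The labels do not say whether replicate numbers pair the samples, and the model used did not pair them. Of libraries with the same number, 2 of 4 pairs correlated over 0.1 in each contrast, with values from -0.53 to 0.47. These correlations cannot settle whether the samples were paired.

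With the replicate block 186 genes were called for the interaction in place of 443, and 0 members in place of 1 (Peg3 1.32, adjusted p = 0.0555 by edgeR). With the clock covariate the genes called numbered 109 for KO against WT at 22 °C (2482 in the model used), 102 averaged over temperatures (863), 23 for the interaction and 2212 for temperature in KO (3772), and 0 members were called in the first 3. Without the muscle-bearing libraries the numbers were 1 at 30 °C (6 in the model used), 1432, 344, 96 and 2115, with 0 members for the interaction. DESeq2 called 22 at 30 °C, 1366 averaged and 1060 for the interaction. At 22 °C it called 3128 genes, among them 3 members. limma called 44, 1495 and 1050, and 6067 for temperature in KO. No filter gave 236 for the interaction, and only the groups compared gave 634 at 22 °C.

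Leaving out 1 library gave 2 to 7 calls at 30 °C (lowest without WT replicate 2), 545 to 1090 averaged (lowest without WT replicate 3 at 30 °C), 147 to 1085 for the interaction (lowest when KO replicate 1 at 30 °C, highest when WT replicate 4 at 22 °C was omitted), 1 to 2 members at 22 °C (Plagl1 joined) and 0 to 1 members for the interaction.

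Uncalled KO effects that changed sign, on the log2 scale, were these, and the cause was not tested. With the clock covariate at 22 °C: Dlk1 -0.46, Mest -0.014, Ndn 0.14, Nnat -0.038 and Plagl1 -0.62; averaged: Dlk1 -0.29 and Plagl1 -0.55; interaction: Dlk1 -0.33, Ndn 0.015 and Plagl1 -0.13. Without the muscle-bearing libraries: at 30 °C Dlk1 0.48, Grb10 -0.13 and H19 -0.28; at 22 °C Mest -0.044 and Nnat -0.56; interaction Dlk1 -0.19. With limma: H19 -0.14 for the interaction, and Mest -0.026 and Ndn 0.063 at 22 °C. With the block: Dlk1 -0.022 averaged. With 1 library left out at 22 °C: Cdkn1c -0.054 to 0.47, Dlk1 -0.12 to 0.29, Mest -0.047 to 0.25, Ndn -0.13 to 0.0040 and Nnat -0.57 to 0.67. At 30 °C: Cdkn1c -0.015 to 0.19, Dlk1 -0.43 to 0.21, Grb10 -0.054 to 0.14, H19 -0.53 to 2.12 and Plagl1 -0.42 to 0.016. Averaged: Dlk1 -0.19 to 0.14 and Ndn -0.030 to 0.044. For the interaction: Cdkn1c -0.14 to 0.38, Dlk1 -0.13 to 0.49, H19 -0.28 to 4.34 and Mest -0.20 to 0.10.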
